A study of Mus musculus with 8 samples.

Results

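Atf4, Asns, the 3 enzymes of serine synthesis and 5 enzymes of folate-dependent one-carbon metabolism were followed in regulatory T (Treg) cells of mice, which are the CD4+ cells that restrain immune responses. These 10 genes (Atf4, Asns, Phgdh, Psat1, Psph, Shmt1, Shmt2, Mthfd1, Mthfd1l and Mthfd2) were picked by symbol out of the 52459 symbols of the deposited expression table, and all 10 were among the 15419 genes abundant enough to be tested. RNA was sequenced from 8 libraries in 4 groups of 2. WT libraries came from CD4+CD25hi YFPcre- Treg cells. The other libraries, labelled Stim1/2-deficient and here called DKO, came from CD4+CD25hi YFPcre+ Treg cells. Both kinds of cells were sorted from spleen and lymph nodes of the same kind of mouse, healthy females on C57BL/6 with floxed alleles of both genes (Stim1 fl/fl and Stim2 fl/fl) and a heterozygous Foxp3-YFPcre, so that WT cells also carried the floxed alleles and differed in not expressing the Cre. The Foxp3 promoter drives this Cre from the X chromosome, and each sample pooled cells of several mice. Mouse age was not given in the sources used here. Cells were left unstimulated or were cultured for 16 h on plate-bound anti-CD3/CD28 at 1 ug/ml, which engages the T cell receptor and its costimulator. The series compared these cells to ask what the calcium sensors STIM1 and STIM2, which open the CRAC channel of the plasma membrane when the endoplasmic reticulum is emptied of calcium, contribute to gene expression in Treg cells.

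ATF4 is a transcription factor of the integrated stress response, in which kinases that sense amino acid shortage, unfolded proteins, double-stranded RNA or lack of heme phosphorylate eIF2 and so slow translation in general while favouring that of ATF4. Its known targets include Asns, which makes asparagine from aspartate and glutamine, and the serine synthesis genes Phgdh, Psat1 and Psph, which turn a glycolytic intermediate into serine. Serine then gives a carbon unit to folate through SHMT1 in the cytosol or SHMT2 in mitochondria. MTHFD2 and MTHFD1L act on this unit in mitochondria and MTHFD1 in the cytosol, and the unit serves the synthesis of purines and thymidylate. Activated T cells are known to raise this pathway as they grow and divide. In RefSeq GRCm38.p6 the protein-coding genes lie with Atf4 at chr15:80255184-80257545, Asns at chr6:7675165-7693209, Phgdh at chr3:98313171-98339969, Psat1 at chr19:15905123-15925059, Psph at chr5:129765558-129787443, Shmt1 at chr11:60788897-60811265, Shmt2 at chr10:127517123-127522444, Mthfd1 at chr12:76254406-76319820, Mthfd1l at chr10:3972892-4167081 and Mthfd2 at chr6:83305704-83326011.

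The promoters of the 3 genes that were called lower in unstimulated DKO libraries are shown because ATF4 is known to bind composite sites of the form TGATGNAA, among them one in the Asns promoter. Each line gives the 250 bases before the RefSeq transcription start, 5′ to 3′ on the gene's own (minus) strand in GRCm38.p6, for Asns at chr6:7693210-7693459, for Psat1 at chr19:15925060-15925309 and for Mthfd2 at chr6:83317605-83317854. Capitals mark the match to TGATGNAA. For Mthfd2, and also for Psph, Mthfd1 and Mthfd1l, the start in the promoter table lies inside the RefSeq gene span given above, which reaches further upstream, and promoters at those outer ends were not searched.
Asns: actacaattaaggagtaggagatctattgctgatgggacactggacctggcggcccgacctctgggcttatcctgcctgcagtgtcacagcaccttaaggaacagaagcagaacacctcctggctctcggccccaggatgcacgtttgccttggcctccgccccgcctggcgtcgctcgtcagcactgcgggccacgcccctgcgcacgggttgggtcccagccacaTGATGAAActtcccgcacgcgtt
Psat1: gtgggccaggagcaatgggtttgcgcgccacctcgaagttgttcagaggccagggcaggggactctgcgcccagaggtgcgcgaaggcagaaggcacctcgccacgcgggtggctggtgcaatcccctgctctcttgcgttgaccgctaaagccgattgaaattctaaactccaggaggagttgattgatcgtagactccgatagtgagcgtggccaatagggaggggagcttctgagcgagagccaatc
Mthfd2: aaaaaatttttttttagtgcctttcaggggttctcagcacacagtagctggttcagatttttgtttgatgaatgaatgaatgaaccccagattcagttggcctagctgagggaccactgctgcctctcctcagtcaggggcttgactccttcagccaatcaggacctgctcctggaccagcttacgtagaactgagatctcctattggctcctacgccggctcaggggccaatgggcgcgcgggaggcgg
In windows of 300 bases, 250 before and 50 after each start, RefSeq gave 11 windows for the 10 genes, as Psat1 has more than 1 start in that table. On either strand TGATGNAA was found in 1 of the 10 genes, as TGATGAAA in Asns from 23 to 16 bases before the start, and in 3.97% of all 32851 windows. CACGTG, the E-box that MYC and its relatives bind, was found in 0 of the 10 genes and in 7.15% of all windows. These are letter matches in short windows and carry no measurement of binding.

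Sequencing gave between 11851853 and 16306540 reads on genes per library, so that 1 read was worth 0.759 to 1.48 normalized counts. Stim1 itself was not lower in the DKO libraries, with 1139 and 1377 normalized counts in unstimulated WT against 1538 and 1868 in unstimulated DKO libraries, a log2 difference of 0.44 ± 0.20 (SE, limma adjusted p = 0.236). Stim2 differed by -0.15 (adjusted p = 0.721), and after stimulation Stim1 differed by -0.15 and Stim2 by -0.13. Counts over a whole gene do not separate the exons a Cre removes, so these counts check neither the deletion nor the labels. Each direction given here is between the libraries as labelled. Evidence for the deletion is in the paper, which reports loss of both transcripts by RT-PCR in Treg cells of male mice. It also reports that YFP+ Treg cells of heterozygous females lacked calcium entry after store depletion. Treg transcripts were abundant in every library, with Foxp3 between 4258 and 11918 and Il2ra between 6821 and 50119 normalized counts. The summed level of the 8 Treg and CD4 markers was 99893 and 92919.7 in unstimulated WT and 46103 and 53483 in unstimulated DKO libraries. Of the 8, 6 were lower in both, with Ctla4 at 37403.5 and 35119 against 6338 and 17333. Smaller differences were those of Trac, at 5340 and 5080 against 3729 and 4087, and Cd3e, at 3424 and 3294 against 3042 and 3156. For Cd4 and Cd3g the libraries of the genotypes overlapped, so the sum does not stand for all T cell transcripts. Macrophage transcripts, summed over the 11 markers in the table, were at 203 and 195 in unstimulated WT libraries, 11229 and 1533 in unstimulated DKO libraries and between 61.6 and 156 in the 4 stimulated ones. All 11 were higher in both unstimulated DKO libraries, and the 8 neutrophil markers were too, with sums of 238.5 and 133 against 1149 and 512. The macrophage genes C1qa and C1qc were at 0 in both unstimulated WT libraries. B cell markers summed to 6932 and 5931 in unstimulated WT and to 14877 and 4059 in unstimulated DKO libraries, and 5 of 10 B cell, 2 of 5 plasma cell, 5 of 6 CD8 T and NK cell and 2 of 6 erythroid markers in the table were higher in both. Unstimulated DKO replicate 1 thus stood apart from the other libraries, and the genotype differences of the 10 genes in unstimulated cells, and the number of calls over the pathway lists, are given with and without it. The part of the lower Treg markers and of transcripts of other cells in the results was not tested. In such bulk samples, fewer cells of a type and less RNA per cell cannot be told apart. Unstimulated libraries carried the tag of one sequencing lane and stimulated libraries that of another, so stimulation and lane cannot be told apart, while both genotypes were present in each lane. The unstimulated cells were described as left untreated and not as cultured for 16 h. Time in culture therefore cannot be told apart from stimulation either, and each change with stimulation is given with that limit.

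Levels per kilobase of exon placed the transcription factor above the enzymes in every group. Atf4 had a mean of 2091 normalized counts per kilobase in unstimulated WT libraries, followed by Psat1 at 233, Mthfd2 at 219 and Mthfd1l at 213, whose libraries overlapped from each to the next. Mthfd1 at 157, Shmt2 at 156 and Psph at 128 came next, again with overlapping neighbours, and Shmt1 at 81.3, Asns at 68.8 and Phgdh at 53.3 closed the order with no overlap between neighbours. The order was not fixed. In unstimulated DKO libraries Asns was the lowest with 16.9 and Psat1 stood at 86.5 between Shmt2 and Psph, while in stimulated WT libraries Shmt2 stood directly under Atf4 with 593 against 869 normalized counts per kilobase. Summed over the 9 enzymes, normalized counts were 4657 and 3907 in unstimulated WT, 2543 and 2262 in unstimulated DKO, 8512 and 9123 in stimulated WT and 7236 and 7666 in stimulated DKO libraries.

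**Figure D1:**
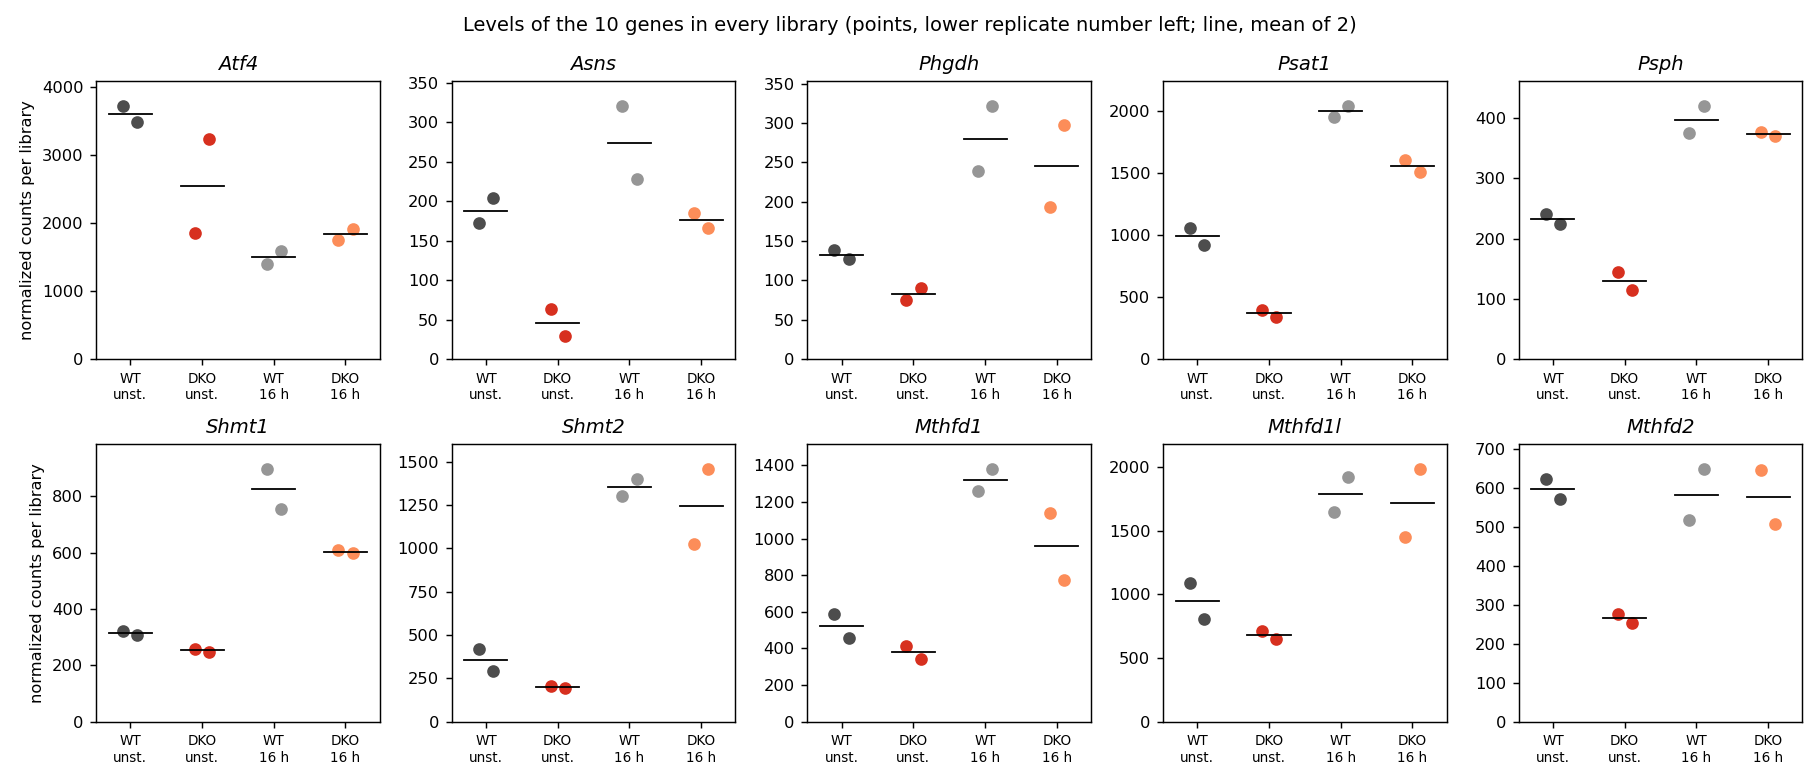
Normalized counts of each of the 10 genes in each of the 8 libraries (points) with the mean of the 2 libraries of a group (line), on linear axes from 0; unst. is unstimulated and 16 h is anti-CD3/CD28. All 10 genes were lower in both unstimulated DKO libraries than in both unstimulated WT libraries, and Atf4 was highest in unstimulated WT cells while most enzymes were highest after stimulation.

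In unstimulated Treg cells, asparagine synthetase, the second enzyme of serine synthesis and the mitochondrial folate dehydrogenase were lower in DKO than in WT libraries. A gene was called where limma's Benjamini-Hochberg adjusted p over all tested genes was under 0.05 and the change on the log2(normalized count + 1) scale was over 1.5-fold. By this rule 3 of the 10 genes (Asns, Psat1 and Mthfd2) were lower and 0 were higher, where 3.35% of all tested genes were called lower and 1.38% higher. Every one of the 10 had both DKO libraries under both WT libraries, which held for 27.1% of all tested genes, and 0 had both above, which held for 26.5%. The median log2 difference of the 10 was -0.74, against -0.01 over all tested genes.

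Asns stood at 173 and 204 in WT replicates 3 and 4, in normalized counts, and at 62.9 and 29.4 in DKO replicates 1 and 2, the last resting on 22 reads. Both DKO libraries lay far under both WT libraries, with a log2 difference of -2.10 ± 0.38 (SE, limma adjusted p = 0.0189), a 4.28-fold change. Psat1, the aminotransferase of serine synthesis, had 1062 and 923 in WT against 395 and 341 in DKO libraries. Its groups were far apart relative to the spread within each, and the log2 difference was -1.43 ± 0.19 (adjusted p = 0.00593). Mthfd2, the mitochondrial dehydrogenase and cyclohydrolase known for its induction in activated and dividing cells, had 622 and 570.2 in WT against 276 and 254 in DKO libraries. Its log2 difference was -1.17 ± 0.23 (adjusted p = 0.0225).

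The other serine enzymes did not pass. Phgdh, which commits the glycolytic intermediate to serine, had 138 and 127 normalized counts in WT and 75.5 and 90.8 in DKO libraries, a log2 difference of -0.67 ± 0.31 (limma adjusted p = 0.240). Psph, the phosphatase of the last step, had 242 and 225 in WT against 145 and 115 in DKO libraries, with -0.85 ± 0.24 (adjusted p = 0.0761). Both were thus under WT in each library, by less than the test required.

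Shmt2, the mitochondrial enzyme that moves a carbon from serine to folate, had 419.8 and 291 normalized counts in WT and 208 and 192 in DKO libraries, with a log2 difference of -0.80 ± 0.25 (limma adjusted p = 0.0979). Shmt1, its cytosolic counterpart, had 324 and 307 against 259 and 247, and its difference of -0.32 had a 95% interval from -0.78 to 0.14. For the cytosolic Mthfd1 the libraries had 590.3 and 456 in WT and 412 and 345 in DKO, and for the mitochondrial Mthfd1l 1087 and 804 in WT and 709.9 and 649 in DKO. The difference of each was -0.46, with adjusted p of 0.300 for Mthfd1 and 0.266 for Mthfd1l. Of the folate enzymes Mthfd2 alone was called, and whether its difference exceeded those of the others was not tested.

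Atf4 itself had 3722 and 3489 normalized counts in WT and 1858 and 3240.04 in DKO libraries. One DKO library lay close to WT and the other far below it, and the log2 difference was -0.55 ± 0.24 (limma adjusted p = 0.218). Without DKO replicate 1, the library richest in macrophage transcripts, it was -0.15, and without DKO replicate 2 it was -0.96. Replicate 2 also held more macrophage transcripts than WT, with a sum of 1533 against 203 and 195, so leaving out replicate 1 does not remove them. For Psat1 and Mthfd2 the DKO libraries lay closer together. Asns was also split, at 62.9 in replicate 1 and 29.4 in replicate 2, the opposite order to Atf4. Without DKO replicate 2 the differences were -1.56 for Asns, -1.32 for Psat1 and -1.11 for Mthfd2. Without DKO replicate 1 they were -2.63 for Asns, -1.54 for Psat1 and -1.23 for Mthfd2, as large as with it or larger. For the other enzymes it was -0.54 for Phgdh, which became smaller, -1.01 for Psph, -0.86 for Shmt2, -0.59 for Mthfd1, -0.53 for Mthfd1l and -0.35 for Shmt1, none of them called.

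With so few libraries the calls leaned on the WT pair. Leaving out unstimulated WT replicate 3 or replicate 4 kept the sizes of Asns (-2.22 and -1.98), Psat1 (-1.33 and -1.53) and Mthfd2 (-1.11 and -1.23) but left 0 of the 10 genes called, and a fit on the 4 unstimulated libraries alone called 1, Psat1. The Mthfd2 call was also lost without stimulated WT replicate 1 (limma adjusted p = 0.0510) or replicate 2 (0.0532), which enter through the shared spread. Lower calls over all tested genes fell in each of these fits as well, from 517 to 255 in the fit on 4 libraries. The losses were thus not particular to the 10 genes. p-values measure only the spread between these pools of mice.

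**Figure D2:**
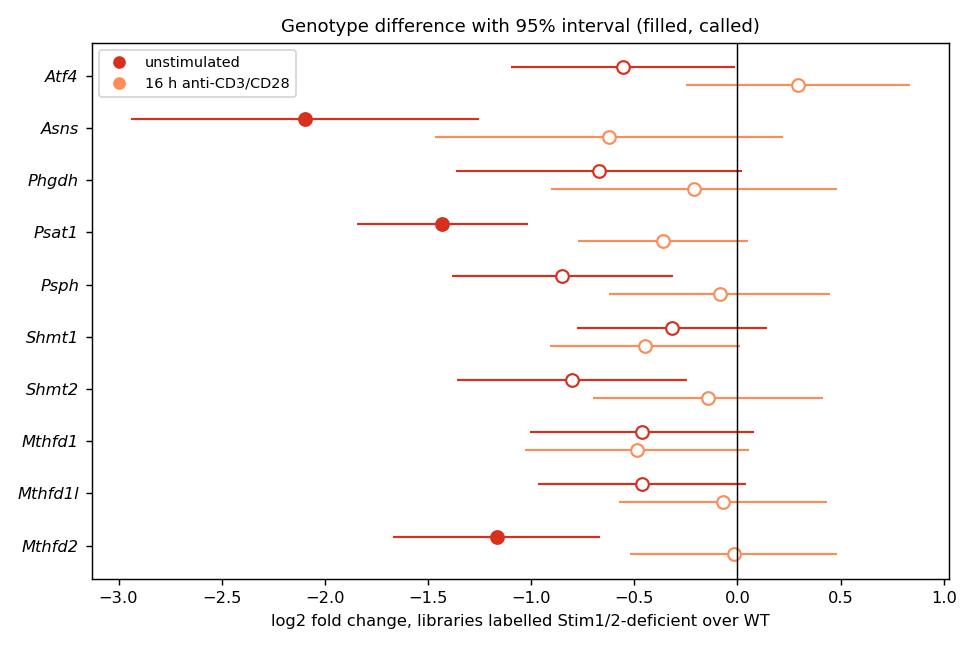
Difference between DKO and WT libraries (log2 fold change with its 95% interval from limma) for each gene, in unstimulated cells (red) and after 16 h of anti-CD3/CD28 (orange); filled points were called. The filled points are Asns, Psat1 and Mthfd2 in unstimulated cells, and after stimulation each of the 10 intervals includes 0.

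After 16 h of anti-CD3/CD28, no gene of the 10 was called between the genotypes. By limma 0 were lower and 0 were higher, where 0.110% of all tested genes were called lower and 0.162% higher, and 0 had an unadjusted p under 0.05 with a change over 1.5-fold. edgeR and DESeq2 on the read counts also called 0 of the 10. Both DKO libraries lay under both WT libraries for 4 genes (Asns, Psat1, Shmt1 and Mthfd1), against 23.1% of all tested genes, and above them for 1 gene, Atf4, against 24.3%.

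Mthfd2 was level between the genotypes, with 517 and 648 normalized counts in WT and 644 and 507 in DKO libraries. Its log2 difference of -0.02 had a 95% interval from -0.52 to 0.48. Psph, Shmt2, Mthfd1l and Phgdh also had overlapping libraries, with log2 differences from -0.21 for Phgdh to -0.07 for Mthfd1l. Asns kept the largest difference of the 10 by size, 320.3 and 229 in WT against 185 and 166 in DKO libraries, at -0.62 with an interval from -1.47 to 0.22 (limma adjusted p = 0.522). Psat1 had 1959 and 2041 against 1609.6 and 1507, at -0.36 (interval -0.77 to 0.05), and Shmt1 897 and 755 against 608 and 599, at -0.45 (interval -0.91 to 0.01). Mthfd1, with 1259 and 1380.4 in WT against 1143 and 775 in DKO libraries, was at -0.49 (interval -1.03 to 0.06). Each of these intervals reached past 0 and also held decreases of more than 1.5-fold. Atf4 went the other way, with 1399.8 and 1595 in WT and 1749 and 1921 in DKO libraries, a log2 difference of 0.29 with an interval from -0.25 to 0.84.

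With stimulation of WT cells, 7 of the 9 enzymes rose and Atf4 fell. Of the 10 genes 7 were called higher, where 10.2% of all tested genes were called higher, and 1, Atf4, was called lower, where 13.1% were. Both stimulated libraries lay above both unstimulated libraries for 8 of the 10 (background 35.0%) and below them for 1 (background 36.0%).

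Shmt2 changed most, from 419.8 and 291 to 1301 and 1404 normalized counts, a log2 change of 1.95 ± 0.25 (limma adjusted p = 0.00123). Shmt1 rose by 1.38 (adjusted p = 0.00233) and Mthfd1 by 1.34 (adjusted p = 0.00485), so that both cytosolic enzymes rose with the mitochondrial one. Phgdh rose by 1.06 to 239 and 321, Psat1 by 1.01 to 1959 and 2041, Mthfd1l by 0.93 to 1645 and 1925, and Psph by 0.77 to 376 and 419.9 normalized counts. Asns was at 0.53 ± 0.38 (adjusted p = 0.341), although both its stimulated libraries lay above both unstimulated ones. Mthfd2 was at -0.04 with an interval from -0.54 to 0.46, and with the libraries scaled to equal totals at 0.48, so no direction can be given for it.

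Atf4 fell from 3722 and 3489 to 1399.8 and 1595 normalized counts in WT cells, a log2 change of -1.27 ± 0.24 (limma adjusted p = 0.00626). Scaled to equal totals, where the median of all tested genes itself shifted by 0.52, its change was -0.75 and still called lower. The Atf4 call was lost without unstimulated WT replicate 3 (adjusted p = 0.0573), without unstimulated WT replicate 4 (0.0516) or without stimulated WT replicate 1 (0.0597). Only 2 of the 7 enzymes, Shmt1 and Shmt2, stayed called when unstimulated WT replicate 4 or stimulated WT replicate 2 was left out.

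In DKO cells every one of the 9 enzymes rose with stimulation. The test called 9 of the 10 genes higher and 0 lower, where 13.0% and 12.0% of all tested genes were called, and the same 9 had both stimulated libraries above both unstimulated ones (background 30.8%), with 0 below (background 30.6%). Leaving out any 1 of the 8 libraries left all 9 called. Shmt2 rose from 208 and 192 to 1028 and 1459 normalized counts, a log2 change of 2.61 ± 0.25 (limma adjusted p = 2.97e-04). Psat1 rose by 2.08 (adjusted p = 2.39e-04) and Asns by 2.00 (adjusted p = 0.00509), the latter from 62.9 and 29.4 to 185 and 166, which overlapped the unstimulated WT libraries. Mthfd2 rose by 1.11 (adjusted p = 0.00690), from 276 and 254 to 644 and 507, which overlapped the libraries of both WT groups. The remaining changes were 1.53 for Psph, 1.52 for Phgdh, 1.32 for Mthfd1l, 1.32 for Mthfd1 and 1.25 for Shmt1.

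Atf4 in DKO cells was at 1858 and 3240.04 normalized counts before and 1749 and 1921 after stimulation, so the groups overlapped, and the log2 change was -0.42 ± 0.24 (limma adjusted p = 0.230). Without unstimulated DKO replicate 1 it was -0.82 (adjusted p = 0.00659), and without unstimulated DKO replicate 2 it was -0.02.

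**Figure D3:**
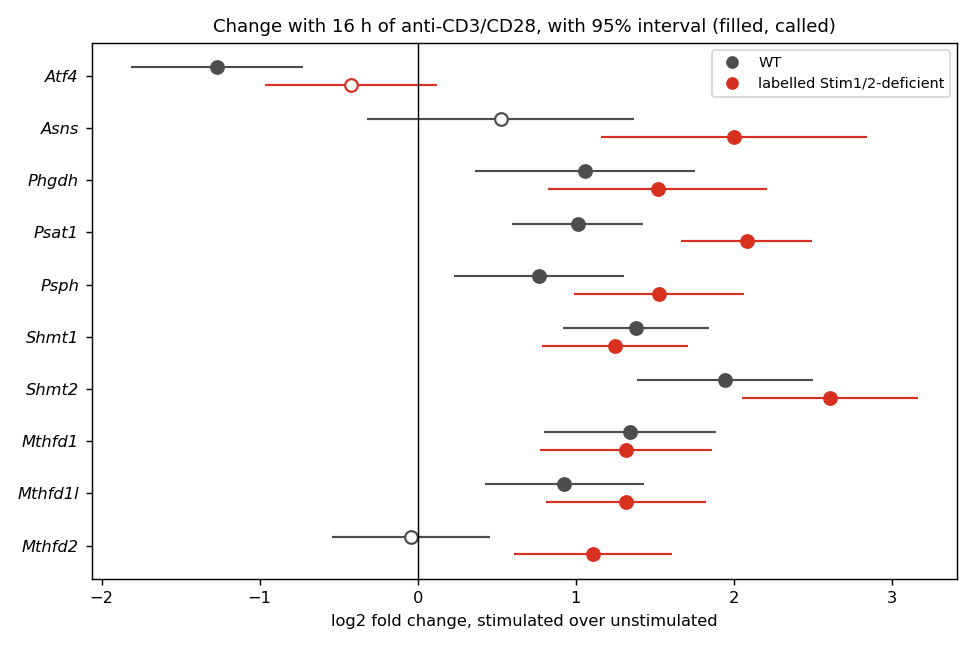
Change with 16 h of anti-CD3/CD28 (log2 fold change with its 95% interval from limma) for each gene in WT (black) and DKO (red) libraries; filled points were called. Shmt2 has the rightmost point in both genotypes, and Asns and Mthfd2 are open in WT and filled in DKO libraries.

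The difference between the stimulation changes of the 2 genotypes, tested as an interaction, passed for 0 of the 10 genes and for 0.00% of all tested genes. At an unadjusted p under 0.05 with a size over 1.5-fold, 5 of the 10 were positive, where 4.57% of all tested genes were, and 0 were negative, where 3.52% were. These were Asns at 1.48 (95% interval 0.28 to 2.67), Mthfd2 at 1.15 (0.44 to 1.86), Psat1 at 1.07 (0.49 to 1.65), Atf4 at 0.85 (0.08 to 1.62) and Psph at 0.76 (0.003 to 1.52), with limma adjusted p from 0.556 to 0.609. edgeR and DESeq2 called 0 of the 10, and the only call in any fit was Atf4 without unstimulated DKO replicate 2 (1.25, adjusted p = 0.0315 by limma). Shmt1 at -0.13 and Mthfd1 at -0.02, the cytosolic enzymes, had the smallest values by size, with intervals from -0.78 to 0.52 and from -0.79 to 0.74.

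Within each library, the balance of mitochondrial to cytosolic folate enzyme transcripts was taken as a ratio of normalized counts, which no scaling of the library alters. The ratios were not corrected for exon length (2280 bases for Shmt2, 3883 for Shmt1), so they compare libraries and not the levels of the genes. Per kilobase, Shmt2 stood at 87.7 and Shmt1 at 65.2 in unstimulated DKO libraries. Shmt2 over Shmt1 was 1.30 and 0.947 in unstimulated WT, 0.802 and 0.778 in unstimulated DKO, 1.45 and 1.86 in stimulated WT and 1.69 and 2.44 in stimulated DKO libraries. It was higher in all 4 stimulated libraries than in any unstimulated one. Mthfd2 over Mthfd1 ran the opposite way, at 1.05 and 1.25 in unstimulated WT and 0.411 and 0.469 in stimulated WT libraries, while the DKO libraries lay between, at 0.669 and 0.736 before and 0.564 and 0.655 after stimulation. Mthfd1l over Mthfd1 was 1.84 and 1.76 in unstimulated WT and 1.31 and 1.39 in stimulated WT libraries. In DKO libraries it was 1.72 and 1.88 before stimulation and 1.27 and 2.56 after, so its stimulated replicates lay on either side of the unstimulated ones. With 2 libraries a group an exact permutation test of a ratio cannot reach 0.05, and none was run.

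**Figure D4:**
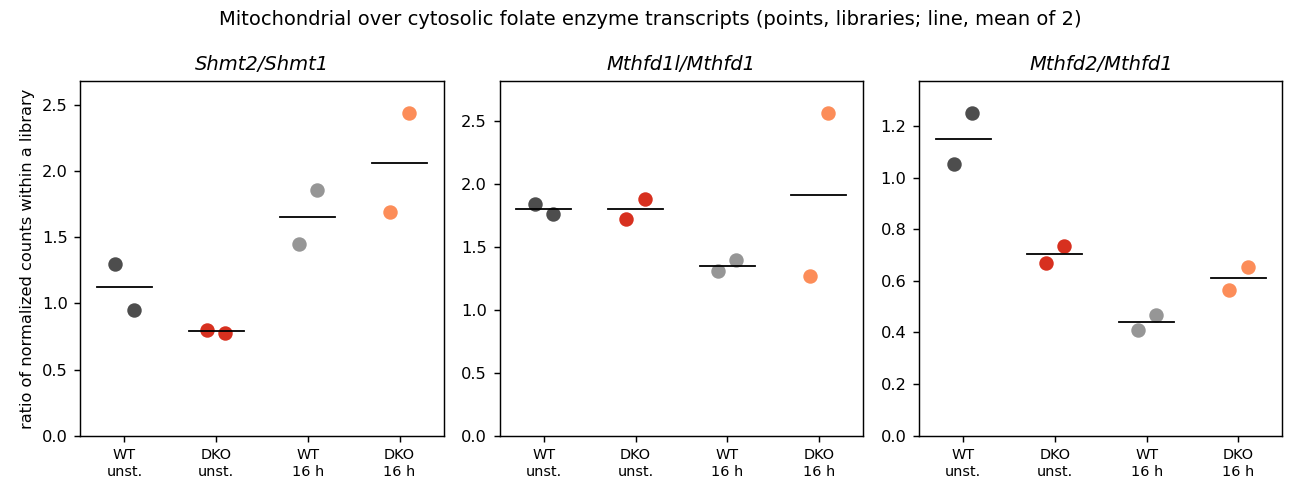
Ratio of normalized counts of a mitochondrial to a cytosolic folate enzyme within each library (points) with the mean of each group of 2 (line), on linear axes from 0. Ratios were not corrected for exon length. Shmt2 over Shmt1 is higher in the 4 stimulated libraries than in the 4 unstimulated ones, and Mthfd2 over Mthfd1 is highest in unstimulated WT libraries at 1.05 and 1.25.

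Other genes that ATF4 and the stress response are known to control were not called between the genotypes. Of a list of 18 such genes 15 were tested (Nupr1, Vldlr and Cth were too low). In unstimulated cells 0 were called, where 3.35% of all tested genes were called lower and 1.38% higher. Log2 differences were negative for 12 of the 15, against 7763 of all 15419 tested genes, and the median was -0.54, against -0.01. After stimulation 0 were called, where 0.110% were called lower and 0.162% higher. There 13 of the 15 were positive, against 7926 of all 15419, and the median was 0.35, against 0.02. With shares this small, 0 calls among 15 do not set these genes apart. Atf4 had the same signs, negative before and positive after stimulation. Among the list, Atf3, a stress-induced factor of the ATF family, had 756 and 882 normalized counts in unstimulated WT and 294 and 499.5 in unstimulated DKO libraries, a log2 difference of -1.09 (limma adjusted p = 0.0621), and 274 and 205 in stimulated WT against 376 and 321 in stimulated DKO libraries. Chac1, which degrades glutathione, was at 46.4 and 48.8 in unstimulated WT and 1.05 and 6.68 in unstimulated DKO libraries, and at 8.57 and 0 in stimulated WT and 23.0 and 34.6 in stimulated DKO libraries. Several of these values are near the worth of 3 reads (2.28 to 4.43 normalized counts), so its fitted differences depend on the pseudocount and are no measure of size.

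**Figure D5:**
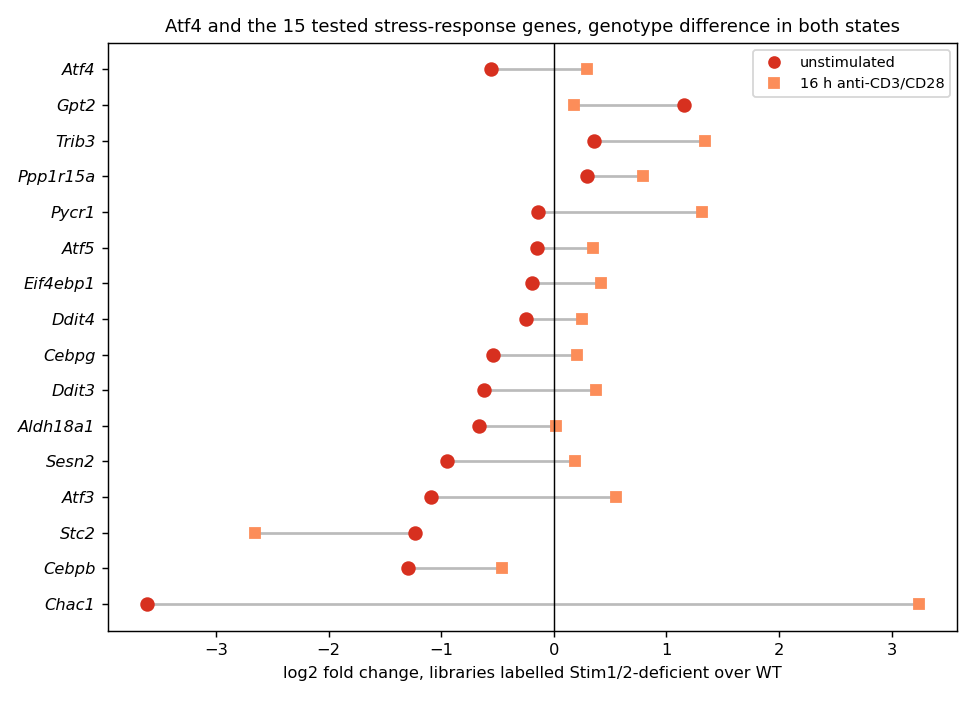
Log2 difference between DKO and WT libraries for Atf4 and the 15 tested stress-response genes, in unstimulated cells (circles) and after 16 h of anti-CD3/CD28 (squares), ordered by the unstimulated value under Atf4. Of the 15 listed genes 12 circles lie left of 0 and 13 squares right of it, and none of these differences was called. The outlying Chac1 points come from libraries near the worth of 3 reads.

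With stimulation these genes did not move together. Ppp1r15a, the regulatory subunit of a phosphatase that restores eIF2, fell with log2 changes of -4.51 in WT cells (limma adjusted p = 1.65e-05) and -4.02 in DKO cells (adjusted p = 3.01e-05). Atf3 fell by 1.78 in WT cells, and Chac1 was called lower there too. Aldh18a1, an enzyme of proline synthesis, rose by 0.81 in WT and 1.5 in DKO cells. Eif4ebp1, a repressor of translation initiation, was at 1.42 in WT cells, uncalled, and rose by 2.03 in DKO cells. Cebpg, a partner of ATF4, was at 0.14 in WT cells, uncalled, and rose by 0.88 in DKO cells. That made 1 of 15 higher and 3 lower in WT and 3 higher and 1 lower in DKO cells, near the shares of all tested genes (10.2% and 13.1% in WT, 13.0% and 12.0% in DKO cells).

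Upstream of ATF4, 2 of 15 genes for eIF2 kinases, eIF2B subunits and their regulators were called lower in unstimulated DKO libraries and 0 higher. Of all tested genes 3.35% were called lower and 1.38% higher. Impact, an inhibitor of the amino acid sensor GCN2, was at -1.40 (limma adjusted p = 0.0346) and Eif2ak2, the kinase PKR, at -0.91 (adjusted p = 0.0480). After stimulation 0 of the 15 were called between the genotypes, where 0.110% of all tested genes were called lower and 0.162% higher. Eif2ak3, the kinase PERK, was lower in stimulated than in unstimulated libraries by 2.13 in WT and 2.45 in DKO cells. The eIF2B subunit Eif2b3 was higher by 2.32 and 1.95. In all, 3 of the 15 were called higher and 2 lower in WT cells, and 4 higher and 1 lower in DKO cells, against shares of 10.2% higher and 13.1% lower in WT and 13.0% and 12.0% in DKO cells over all tested genes.

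Folate enzymes and carriers outside the 10 gave 4 lower and 0 higher calls among 14 tested of 17 in unstimulated DKO libraries. The shares over all tested genes were 3.35% lower and 1.38% higher. Tyms, which makes thymidylate, had 604 and 489 normalized counts in WT against 180.4 and 84.1 in DKO libraries, a log2 difference of -2.13 (limma adjusted p = 0.0189). The reduced folate carrier Slc19a1 was at -1.25. Izumo1r, known on Treg cells and listed here for its earlier name of folate receptor FR4, was at -1.17. Neither folate binding nor folate uptake was measured. These genes sat beside a lower level of cell cycle transcripts. Of 14 S phase and mitosis genes 11 were called lower and 0 higher in unstimulated DKO libraries, against the same 3.35% and 1.38%. Their median was -2.04, and Cdk1 was at 319 and 225 against 47.2 and 12.0 normalized counts. In stimulated cells 0 of these 14 were called, all 14 were negative and the median was -0.90. Over all pathway lists 19 genes were called lower in unstimulated DKO libraries, and the count was 19 without DKO replicate 1, 0 without WT replicate 3, 2 without WT replicate 4, and 8 and 5 without stimulated WT replicate 1 or 2, which share in the estimate of the spread. In the full fit 11 of the 19 were the S phase and mitosis genes, and 3.35% of all tested genes were called lower. Lower calls over all tested genes also fell in the fits without a WT library. The part of cell cycle transcripts in the differences of Asns, Psat1 and Mthfd2 was not tested.

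With stimulation 5 of the 14 folate genes were called higher in WT and 6 in DKO cells, where 10.2% and 13.0% of all tested genes were, and 0 lower in either, where 13.1% and 12.0% were. Slc19a1 rose by 2.07 in WT cells, from 99.3 and 96.0 to 412 and 416 normalized counts, and by 2.94 in DKO cells. Gart and Atic, enzymes of purine synthesis that consume formyl folate, rose by 1.18 and 0.85 in WT and by 1.17 and 1.05 in DKO cells. Tyms rose by 1.66 in DKO cells.

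Glycine, the other product of SHMT, can enter the mitochondrial cleavage system, whose 4 genes were all tested. In unstimulated DKO libraries 1 was called lower and 0 higher, against 3.35% and 1.38% of all tested genes. Gcsh, the carrier protein of that system, was lower in unstimulated DKO libraries by 1.11 on the log2 scale (limma adjusted p = 0.0465) and rose with stimulation by 1.90 in WT and 2.41 in DKO cells. Gldc, its decarboxylase, fell by 4.50 in WT and by 2.96 in DKO cells, to between 0.76 and 7.01 normalized counts, which is near the worth of 3 reads. No gene of the methionine cycle, 7 tested of 9, was called between genotypes. Over all tested genes 3.35% were called lower and 1.38% higher in unstimulated cells, and 0.110% and 0.162% in stimulated cells. Ahcy, which removes the product of methylation reactions, rose by 1.27 in WT and 1.59 in DKO cells, and Mtrr, which keeps methionine synthase active, by 0.85 and 1.23.

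Serine use and transport gave 0 genotype calls among 10 tested of 13. The shares over all tested genes were 3.35% lower and 1.38% higher in unstimulated cells, and 0.110% and 0.162% in stimulated cells. With shares this small, 0 calls among 10 do not set these genes apart. Sfxn1, the mitochondrial serine carrier, rose with stimulation by 1.42 in WT and 1.64 in DKO cells. Serinc1 and Serinc3, of a family named for serine incorporation into lipids, fell by 1.40 and 1.15 in WT and by 0.99 and 1.01 in DKO cells. Slc6a9, a glycine transporter listed at 0 in both unstimulated WT libraries, was at 12.5 and 17.5 normalized counts in stimulated WT and 23.8 and 25.3 in stimulated DKO libraries. The neutral amino acid exchanger Slc1a4 rose by 2.55 in DKO cells.

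Among enzymes of aspartate, asparagine and glutamine, 10 tested of 12, 1 was lower in unstimulated DKO libraries, Ass1 of arginine synthesis at -1.11 (limma adjusted p = 0.0271). The share of all tested genes called lower was 3.35%. Cad, which starts pyrimidine synthesis, rose with stimulation by 1.62 in WT and 2.06 in DKO cells, and Glul, glutamine synthetase, fell by 1.66 and 1.11. Of 7 upstream growth regulators, Nfe2l2, the factor NRF2 of the oxidative stress response, was higher in unstimulated DKO libraries by 0.79 (adjusted p = 0.0451). Over all tested genes 1.38% were called higher. Myc had 1128 and 1077 normalized counts in unstimulated WT and 1573 and 892 in unstimulated DKO libraries, and rose with stimulation by 2.19 in WT and 1.99 in DKO cells, to between 4677 and 5418 in all 4 stimulated libraries.

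Across the 8 libraries the 9 enzymes ran together and Atf4 did not. Pearson's r of log2 levels was between 0.63 and 0.99 for the 36 pairs of enzymes and between -0.78 and -0.14 for Atf4 with each enzyme. These points share groups, lanes and scaling and are given as a description. The tested genes most like Atf4, out of 12161 that spanned at least 1 log2 unit, were Aplp2, Acot2 and Ets2 with r from 0.987 to 0.989. Those most like Phgdh were Spata24, Eif5a2 and Rpl27-ps3 (0.987 to 0.996), of which Spata24 and Rpl27-ps3 had at most 59.98 normalized counts in any library. For Mthfd2 they were Dph3, Mrpl45 and Fam96a (0.967 to 0.972).

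Of related loci, Phgdh-ps1 was listed at 0 in all 8 libraries, and the Mthfd2 relative Mthfd2l had 58.8 to 115 normalized counts. By the RefSeq coordinates Psph shared 88 bases at its edge with Cct6a, an abundant chaperonin gene with 2348 to 7325 normalized counts. The sources used here differ on whether the libraries kept strand, so reads over these shared bases are of uncertain origin.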

How the data were processed

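RNA of sorted Treg cells was sequenced in 8 libraries. The authors deposited 1 table of normalized counts per gene symbol, a signal in which each library's reads are divided by a size factor. Values came out as whole multiples of what 1 read is worth for 100% of entries (tolerance 0.006 normalized counts), so the reads could be recovered. The submitters' processing notes name STAR 2.7, mm10, bcl2fastq 1.8.4 and DESeq2, whereas the study's methods name Bowtie, NCBIM37, Picard, HTSeq and DESeq2, and a stranded kit stands against an unstranded one. The table holds 4548 symbols of late numbering, from Gm37000 to Gm49999, of which 0 are in the GENCODE vM1 annotation of NCBIM37. Coordinates and promoters come from RefSeq GRCm38.p6 and exon lengths from GENCODE vM1.

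The 15419 genes that averaged 10 normalized counts or more over the libraries were fitted on log2(normalized count + 1), which understates changes of low genes, with limma 3.58.1 (lmFit, eBayes with trend, R 4.3.3) over 4 groups. P-values were adjusted by Benjamini-Hochberg over all genes of a contrast. edgeR 4.0.16 and DESeq2 1.42.0 on recovered reads, pseudocounts of 0.1 and 5, other filters, scalings, thresholds and fits without 1 library were alternatives. In unstimulated cells limma called 517 genes lower and 213 higher, edgeR 353 and 131, and DESeq2 810 and 511. The scripts were tested on simulated data. The 10 genes, the pathway lists and the tests were chosen with earlier results of these data known. Genes named were the 10, up to 4 called members of each list in each direction, and the 3 genes most correlated with Atf4, Phgdh and Mthfd2, while Atf3, Chac1 and Myc levels and other uncalled values were named after they were seen. A comparison of protein sequences was not made. Sampling noise of reads is part of each spread, and a level of 3 reads was taken as the floor.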

Additional observations from a re-analysis of the deposited data

Results flagged for a closer look

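The 10 genes and the pathway list genes called in any contrast were searched for a change of side between genotypes. For 8 genes both DKO libraries lay on one side of both WT libraries before stimulation and on the other side after it. Of all tested genes, 26.5% lay above and 27.1% below before stimulation, and 24.3% and 23.1% after it. The share of all tested genes that changed sides was not taken, so the 8 cannot be set against it. The interaction, on the log2 scale and tested by limma, was 0.85 for Atf4 (adjusted p = 0.580), 6.85 for Chac1 (0.506), 1.64 for Atf3 (0.556), 0.74 for Cebpg (0.569), 1.02 for Eif2ak2 (0.556), -0.69 for Mtfmt (0.625), 0.52 for Sptlc1 (0.652) and 1.90 for Slc1a4 (0.556), so none passed the adjusted threshold of 0.05. The Chac1 value rests on libraries near the worth of 3 reads and depends on the pseudocount. Groups of 2 are too small for a search for single outlying libraries.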

How the results depend on the processing

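With stimulation in DKO cells 9 of the 10 genes were called higher in each of the other fits, whereas the 3 lower calls in unstimulated DKO libraries became 1 in a fit on those 4 libraries and 5 at an unadjusted p under 0.05, and interaction calls went from 0 to 5 at an unadjusted p. Leaving out each library in turn, where a lone library is assumed to vary like the other groups, gave 0 to 4 lower calls in unstimulated cells, 2 to 7 higher and 0 to 1 lower with stimulation in WT cells, 0 to 1 lower in DKO cells, and 0 to 1 interaction calls. Over all tested genes, lower calls in unstimulated cells also went from 517 to 255 in the fit on 4 libraries. The cause was not tested.

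In the full limma fit 3.35% of all tested genes were called lower and 1.38% higher between genotypes in unstimulated cells. In stimulated cells these shares were 0.110% and 0.162%. With stimulation 10.2% were called higher and 13.1% lower in WT cells, and 13.0% and 12.0% in DKO cells. Over the pathway lists, 19 genes were lower in unstimulated DKO libraries. This count was 9 with every gene above 0 tested, where the adjustment covers more genes, 12 with equal upper quartiles, 10 in the fit on 4 libraries and 37 at an unadjusted p. The 1 higher call was 0 with pseudocount 0.1, with every gene, by edgeR, with 4 libraries and at 2-fold, and 3 at an unadjusted p. In stimulated cells the 0 lower and 0 higher calls were 5 and 1 by DESeq2, 5 and 1 with the replicate block and 15 and 6 at an unadjusted p. With stimulation, 17 higher calls in WT cells became 38 at equal totals and 10 at 2-fold. In DKO cells 30 higher calls became 47 at equal totals and 16 with 4 libraries, and 7 lower calls became 4 at equal totals, with 4 libraries and with 6 libraries. Interaction calls were 0, 1 by DESeq2 and 14 at an unadjusted p. Leaving out 1 library gave 0 to 20 lower and 0 to 1 higher calls in unstimulated cells, 0 to 9 lower and 0 to 2 higher in stimulated cells, 4 to 18 higher and 5 to 13 lower with stimulation in WT cells, 18 to 31 higher and 3 to 9 lower in DKO cells, and 0 to 3 interaction calls.

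Equal totals shifted the median of all genes by 0.11 between genotypes in unstimulated cells, 0.52 with stimulation in WT and 0.35 in DKO cells, and equal upper quartiles by 0.15 and -0.12 (unstimulated genotypes and DKO stimulation). All-gene calls in unstimulated cells went from 517 lower and 213 higher to 353 and 241 at equal totals and 332 and 286 at equal upper quartiles. Directions that turned were all of small, uncalled values. Mthfd2 turned between genotypes in stimulated cells under quantile normalization (0.0004) and with stimulation in WT cells at equal totals (0.48), equal upper quartiles (0.026) and under quantile normalization (0.015). Leaving out 1 library, the genotype difference in stimulated cells ran from -0.52 to 0.10 for Phgdh, -0.39 to 0.11 for Shmt2, -0.30 to 0.16 for Mthfd1l and -0.19 to 0.15 for Mthfd2, the interaction of Mthfd1 from -0.30 to 0.26 and the stimulation change of Mthfd2 in WT cells from -0.20 to 0.12.

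No source used here says whether the shared replicate numbers 1 and 2 pair libraries, and 2 numbers are too few to decide it. Deviations of same-numbered libraries correlated at 0.17 (stimulated WT and DKO), 0.26 (DKO) and 0.11 (unstimulated DKO and stimulated WT) over genes, and the block left the calls among the 10 genes at 0 between genotypes in stimulated cells and 9 with stimulation in DKO cells. Asns at 22 reads in one library is the least precise of the 10.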
